A study of Mus musculus with 9 samples.

Results

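The complement genes described here are 9 genes chosen by name: the C1q chains C1qa, C1qb and C1qc, the components C4b and C3, the regulators Cfp and Serping1, and the receptors C3ar1 and C5ar1. All 9 were found by symbol among the 22036 genes of the deposited per-library table, and all 9 were among the 14955 genes that passed the filter on low values, a log2 value of 3.32 (a linear value of 10) or more in 3 or more libraries. RNA was sequenced from microglia sorted by flow cytometry from the brains of female, wild-type C57BL/6 mice that were 6 months old (young), 15 months old (middle-aged) or 23 months old (old). Each age had 3 libraries, and RNA for each library came from 3 mice pooled before extraction. The spread between libraries is therefore a spread between pools of animals, and p-values measure only that spread. The values are on a log2 scale and their read totals are not given, so the depth behind each value is unknown. The study's title names mTOR-dependent translation and microglia priming in ageing, and the comparisons below ask how transcript levels of the complement genes differed with age.

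Complement is a cascade of proteins that tags cells, debris and synapses for removal. C1q binds a target, C4 and C3 are cleaved in turn, and the fragments deposited on the target or released from it are read by receptors on phagocytes. In the brain, microglia are the main source of C1q, and C1q and C3 are known for their part in the removal of synapses during development and in ageing and disease models.

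Of 12 microglia markers listed, 9 were in the table and all 9 passed the filter, with log2 values between 14.07 for Sall1 and 19.04 for Csf1r. P2ry12, Gpr34 and P2ry13 were not analysed here. The sum of the 9 markers on the linear scale lay between 1660964 and 1896557 in young libraries, 1379965 and 1586058 in middle-aged ones, and 1313521 and 1546455 in old ones. Of these 9, 2 were called lower in old than in young libraries and 0 higher (limma), with a median log2 difference of -0.20. The same test called 0.301% of all tested genes lower and 1.7% higher. All 11 markers of border macrophages, which lie at the surfaces and vessels of the brain, passed as well. They summed to between 133383 and 141041 in young libraries, 95555 and 118339 in middle-aged ones, and 87428 and 111047 in old ones. Neither this sum nor that of the microglia markers overlapped between old and young libraries. Among single tested genes, 12.3% lay lower in old than in young libraries without overlap. Linear sums weigh abundant genes most, above all Csf1r and Cx3cr1 for microglia and Stab1, F13a1 and Mrc1 for border macrophages. Of the 11, 2 were called lower in old than in young libraries and 0 higher (limma), beside the same shares of all tested genes. Their median log2 difference was -0.46, and their part in the complement values was not tested. All 12 neutrophil and all 10 monocyte markers listed also passed the filter, and their sums are given beside C3. In bulk RNA, fewer cells of a type and less RNA per cell cannot be told apart. Along the first principal component of the tested genes, which held 34.7% of the variance, old replicate 3 lay at 29.9 and the other 8 libraries between -14.4 and 5.9, so results are also given without it where it moved them.

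The 3 C1q genes lie side by side within 18675 bases of chromosome 4, all on the minus strand of GRCm38. In the direction of transcription, C1qa (136895917 to 136898803) comes first, C1qc (136889804 to 136893065) next and C1qb (136880129 to 136886187) last, with 2851 and 3616 bases between neighbours. Each of their longest protein-coding transcripts in GENCODE M21 has 3 exons. C3 (57203970 to 57228136) and C4b (34728380 to 34743882) lie apart on chromosome 17. Serping1 is on chromosome 2 (84765387 to 84775444), C3ar1 on chromosome 6 (122847138 to 122856161), C5ar1 on chromosome 7 (16246743 to 16259540) and Cfp on chromosome X (20925454 to 20931555).

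The sequences just upstream of C1qb, C1qc and C3 are shown because they hold the matches found to the motifs searched. They are RefSeq promoter sequences on GRCm38.p6, minus strand, 5′ to 3′, ending just before the RefSeq start site or, where it lies further upstream, the GENCODE start. Windows of 48 to 250 bases were searched in the 6 of 9 genes that RefSeq's table matched, all but C1qa, C4b and Serping1. Capitals mark a match to the PU.1 core letters GAGGAA on either strand in C1qb and C1qc, and to the C/EBP letters TTGCNNAA in C3. The intervals are chr4:136886201-136886450 for C1qb, chr4:136893066-136893164 for C1qc and chr17:57228137-57228386 for C3.
C1qb: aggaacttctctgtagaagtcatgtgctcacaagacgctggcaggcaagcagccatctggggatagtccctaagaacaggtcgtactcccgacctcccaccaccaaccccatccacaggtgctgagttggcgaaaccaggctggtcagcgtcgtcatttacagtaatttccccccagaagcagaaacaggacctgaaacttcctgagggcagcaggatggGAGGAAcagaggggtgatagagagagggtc
C1qc: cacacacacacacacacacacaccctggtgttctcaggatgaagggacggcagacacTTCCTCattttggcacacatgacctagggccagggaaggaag
C3: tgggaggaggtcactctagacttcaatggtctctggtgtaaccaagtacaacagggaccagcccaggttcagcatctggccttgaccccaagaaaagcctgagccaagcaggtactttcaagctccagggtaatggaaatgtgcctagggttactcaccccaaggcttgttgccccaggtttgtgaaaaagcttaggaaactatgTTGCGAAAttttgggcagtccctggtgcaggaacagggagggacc
The match in C1qb begins 30 bases before the RefSeq start site and is on the gene's own strand. In C1qc the match is on the opposite strand, 193 bases before the RefSeq start. The C/EBP match in C3 begins 45 bases before the start. Among all 32851 RefSeq promoters, 23.3% hold the PU.1 letters within 250 bases upstream of the start and 9.56% the C/EBP letters. Within the 99-base window used for C1qc, 9.91% of promoters hold the PU.1 letters. Neither the interferon response letters (GAAA, any 2 bases, GAAA), nor the STAT letters TTCNNNGAA, nor the NF-kB motif matched in the windows of the 6 genes on either strand, and Cfp, C3ar1 and C5ar1 held no match to any motif. A match describes letters in a window and not a site that a factor binds.

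The largest C1q difference was that of C1qa, whose product is the A chain of C1q. Its log2 value was 14.43, 14.53 and 14.32 in the young libraries (replicates 1, 2 and 3), 14.84, 14.81 and 14.75 in the middle-aged ones, and 15.10, 14.94 and 15.30 in the old ones. The 3 ages did not overlap: every middle-aged library lay above every young one, and every old library above every middle-aged one. C1qa was 1.61-fold higher in old than in young libraries (log2 difference 0.68, SE 0.10, 95% interval 0.46 to 0.91, n = 3 each, adjusted p = 0.00733, limma moderated test with Benjamini-Hochberg adjustment over all tested genes). It was also the only member called by the F test over the 3 ages (limma, adjusted p = 0.0237), a test that called 0.836% of all tested genes. The call against young libraries was lost without young replicate 3, at adjusted p = 0.0579 (limma), and held when each of the other 8 libraries was left out. The F test's call was lost without young replicate 1, 2 or 3, middle-aged replicate 2 or old replicate 1, and limma adjusted p ran from 0.0211 to 0.156 as each of the 9 libraries was omitted.

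C1qc, encoding the C chain, had log2 values of 14.70, 14.78 and 14.60 in young libraries, 15.09, 15.05 and 14.99 in middle-aged libraries, and 15.21, 15.04 and 15.47 in old libraries. Young libraries lay below all others, while old replicate 2 fell within the middle-aged range. C1qc was 1.46-fold higher in old than in young libraries (log2 difference 0.54, SE 0.11, 95% interval 0.31 to 0.78, n = 3 each, limma adjusted p = 0.0327). With each library left out in turn, its call held without middle-aged replicate 3 or old replicate 2 (2 of 9 fits). It was lost without young replicate 1, 2 or 3, middle-aged replicate 1 or 2, or old replicate 1 or 3, where the limma adjusted p lay between 0.0551 and 0.176. The estimate itself stayed between 0.43 and 0.64.

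C1qb, encoding the B chain, had log2 values of 18.26, 18.50 and 18.29 in young libraries, 18.55, 18.46 and 18.49 in middle-aged libraries, and 18.72, 18.59 and 18.90 in old libraries. Old libraries lay above all young and middle-aged ones, and young replicate 2 lay within the middle-aged range. Old and young means differed by 0.39 (SE 0.09) on the log2 scale (95% interval 0.19 to 0.58, n = 3 each), with limma adjusted p = 0.0566, just above the threshold of 0.05. Without old replicate 2 it was 0.46, with limma adjusted p = 0.0379. Without old replicate 3, the highest library for each chain, the differences were 0.59 for C1qa (limma adjusted p = 0.0153), 0.43 for C1qc (0.0557) and 0.31 for C1qb (0.123).

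**Figure D1:**
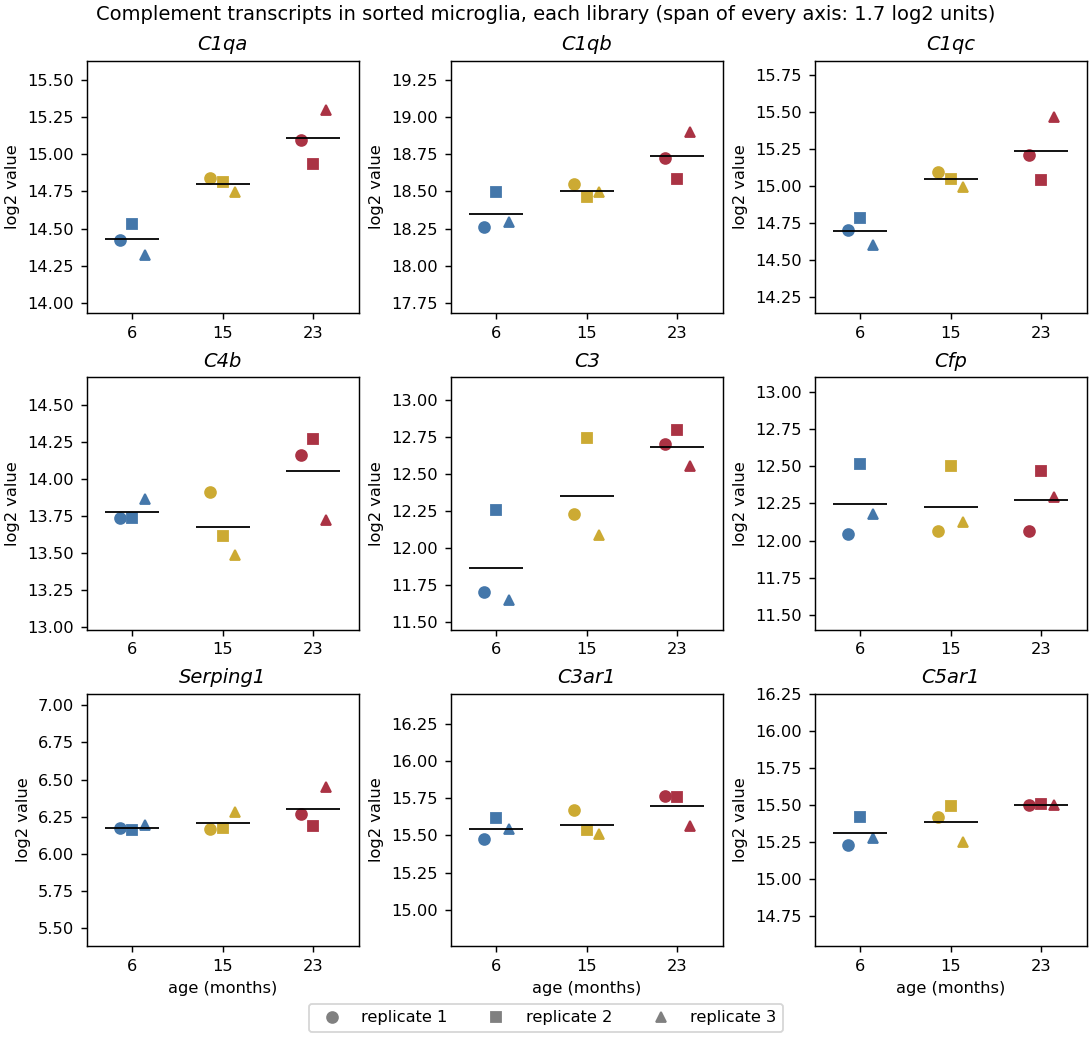
Log2 value (vertical axis) of each of the 9 complement genes by age in months (horizontal axis), one point per library with its replicate number as the symbol and the group mean as a line. Every vertical axis spans the same number of log2 units. The C1q chains, C3 and C5ar1 are higher at 23 months than at 6 with no overlap, as are 12.2% of all tested genes. Cfp is flat at a log2 value of about 12.2, with replicate 2 the highest at each age.

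The estimates of the 3 chains were unequal, so the difference between each pair of chains was read within each library. Scaling all values of a library by a common factor leaves that difference as it is. Other transformations can change it, and the one behind these values is not given. C1qa minus C1qb was -3.83, -3.96 and -3.97 in young libraries, -3.70, -3.65 and -3.75 in middle-aged libraries, and -3.62, -3.65 and -3.60 in old libraries. C1qa was thus closer to C1qb at both later ages, with no overlap with the young libraries. C1qa minus C1qc was -0.28, -0.25 and -0.28 in young libraries, -0.25, -0.24 and -0.25 in middle-aged libraries, and -0.11, -0.10 and -0.16 in old libraries. Here the old libraries stood apart, while the young and middle-aged ones lay within 0.05 of each other. C1qc minus C1qb was -3.56, -3.72 and -3.69 in young libraries, -3.46, -3.42 and -3.50 in middle-aged libraries, and -3.51, -3.55 and -3.43 in old libraries, so that young libraries lay below all others. Among single tested genes, 12.2% lay higher and 12.3% lower in old than in young libraries without overlap. The share of all gene pairs whose difference separates the ages in this way was not counted.

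Between old and young libraries these differences shifted by 0.30 for C1qa against C1qb, 0.16 for C1qc against C1qb and 0.14 for C1qa against C1qc. The third follows from the first pair. Each had p = 0.1 in a two-sided exact permutation test of 3 against 3 libraries, the smallest p that such a design allows. An exact permutation F test over the 3 ages, chosen after the values were seen, gave p = 0.00357 for C1qa against C1qb, the smallest that its 1680 arrangements can give, p = 0.0214 for C1qc against C1qb and p = 0.00714 for C1qa against C1qc. Adjusted over the 4 pairs of genes compared (Benjamini-Hochberg), these exact permutation p-values were 0.0143, 0.0285 and 0.0143. The adjustment does not cover the choice of this test after the values were seen. In the authors' deposited table the old against young log2 fold changes kept the same order, 0.81 for C1qa, 0.64 for C1qc and 0.45 for C1qb.

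**Figure D2:**
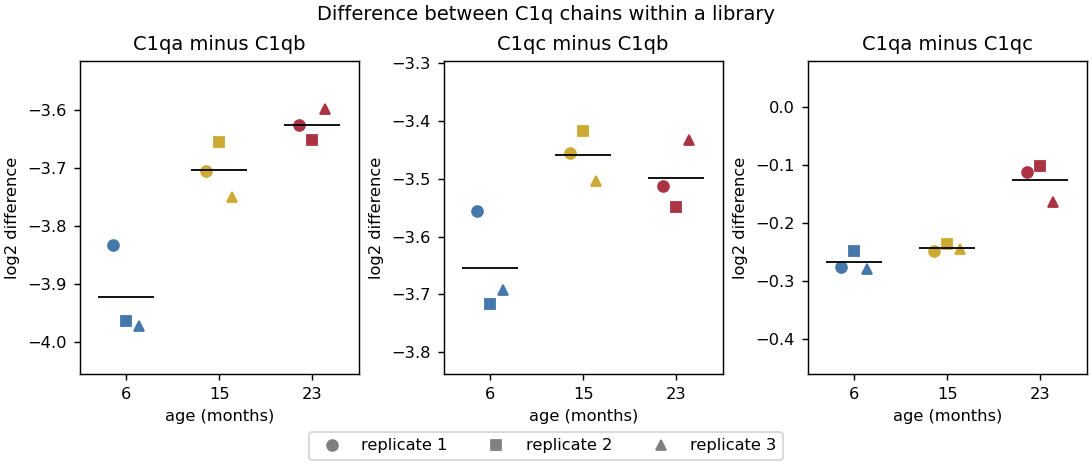
Difference in log2 value between a pair of C1q chains within each library (vertical axis) by age in months (horizontal axis), one point per library and the group mean as a line; all 3 vertical axes have the same span. C1qa minus C1qb has means of -3.92, -3.70 and -3.62 at 6, 15 and 23 months, and C1qa minus C1qc has means of -0.27, -0.24 and -0.13; steps between neighbouring ages were not tested.

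C3 is the central component of the cascade, on which all routes of activation converge. Log2 values of C3 were 11.70, 12.25 and 11.65 in young libraries, 12.23, 12.74 and 12.08 in middle-aged libraries, and 12.70, 12.79 and 12.55 in old libraries. Old libraries lay above all young ones, and middle-aged replicate 2 lay within the old range. C3 had the largest difference between old and young libraries of the 9 genes, 1.76-fold (log2 0.81, SE 0.19, 95% interval 0.39 to 1.24, n = 3 each), with limma adjusted p = 0.0607. Its spread was the largest of the 9 at 6 and 15 months, with an SD of 0.34 at each, and 0.12 at 23 months. Without young replicate 2 the difference was 1.01 with limma adjusted p = 0.0369, and without middle-aged replicate 2 it was 0.81 with adjusted p = 0.0487. C3 was called only in these 2 of the 9 fits that each left a library out. Without young replicate 1 the difference was 0.73 (limma adjusted p = 0.22), and without young replicate 3 it was 0.70 (0.264). The authors' deposited table gave a log2 fold change of 0.83 with DESeq2 adjusted p = 0.00115.

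In each age C3 was highest in replicate 2, and so was the summed level of the 10 monocyte markers. On the linear scale that sum was 29769, 41004 and 33934 in young libraries, 48411, 77197 and 40201 in middle-aged libraries, and 36504, 60460 and 50021 in old libraries. Chil3 was the largest part of that sum in every library, with log2 values between 13.38 and 15.41. Its highest value was in middle-aged replicate 2, the library that also had the highest neutrophil marker sum. Of the 10 monocyte markers, 2 were called higher in old than in young libraries and 0 lower (limma). The same test called 1.7% of all tested genes higher and 0.301% lower. The median log2 difference of the 10 was 0.42. The 12 neutrophil markers summed to 270620, 501852 and 367721 in young libraries, 490002, 1006925 and 442760 in middle-aged libraries, and 220232, 435101 and 501198 in old libraries. Their median log2 difference between old and young libraries was 0.03. The part of these cells in the C3 values was not tested.

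C4b encodes the mouse C4 protein, which is cleaved after C1q has bound and helps to form the enzyme that cleaves C3. C4b had log2 values of 13.74, 13.74 and 13.87 in young libraries, 13.91, 13.62 and 13.49 in middle-aged libraries, and 14.16, 14.27 and 13.73 in old libraries. Old replicates 1 and 2 lay above every other library, and old replicate 3 lay below every young one. Old minus young was 0.27 (SE 0.15) on the log2 scale (n = 3 each, limma adjusted p = 0.395), and without old replicate 3 it was 0.44 (limma adjusted p = 0.129). Between old and middle-aged libraries the difference was 0.38 ± 0.15 (limma adjusted p = 0.433). C4b has a near-identical neighbour, C4a, whose log2 values lay between 4.35 and 4.57, so how reads were divided between the pair is uncertain. Astrocytes also make C4, and 7 of the 8 astrocyte markers listed were in the table. They summed to between 20662 and 22008 in young libraries, 20028 and 20485 in middle-aged ones, and 16661 and 18561 in old ones. Old and young libraries did not overlap in this sum either, where 12.3% of all tested genes lay lower without overlap. The part of astrocytes in the C4b values was not tested. Slc1a3 makes up most of that sum, with log2 values between 13.80 and 14.24 where the other 6 markers lay between 3.99 and 10.76. The 7 had a median log2 difference of -0.07 between old and young libraries.

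Neither regulator was called at any pair of ages (limma), and neither had an unadjusted p under 0.05. Cfp encodes properdin, which stabilises the alternative pathway enzyme that cleaves C3. Cfp had log2 values of 12.04, 12.52 and 12.18 in young libraries, 12.06, 12.50 and 12.12 in middle-aged libraries, and 12.07, 12.47 and 12.30 in old libraries. The ages overlapped almost completely, and replicate 2 was the highest in each, as it was for C3 and the summed monocyte markers. Old minus young was 0.03 (SE 0.16) on the log2 scale (95% interval -0.32 to 0.38, n = 3 each, limma adjusted p = 0.942), and its sign turned to negative without young replicate 1, young replicate 3 or old replicate 2.

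Serping1 encodes the C1 inhibitor, a serpin that blocks the proteases bound to C1q. It had the lowest level of the 9 genes, with log2 values of 6.17, 6.16 and 6.19 in young libraries, 6.16, 6.18 and 6.28 in middle-aged libraries, and 6.27, 6.19 and 6.45 in old libraries. Old replicate 2 lay within the young range and old replicate 3 was the highest. The limma estimate of old minus young was 0.13 (SE 0.07, n = 3 each, limma adjusted p = 0.431), and 0.05 without old replicate 3. In the authors' deposited table its base mean was 85.3 and its log2 fold change was 0.38 (DESeq2 adjusted p = 0.323). Because the transformation behind the per-library values is not given, their folds may understate differences, above all for genes of low level, or overstate them. Of the 9 genes, 8 had a larger old against young log2 fold change in the authors' deposited table than in the per-library values, all but Cfp. This order did not hold throughout: in each of the other comparisons C3 had the larger log2 difference in the per-library values.

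Neither receptor gene was called at any pair of ages (limma adjusted p), and C5ar1 alone had an unadjusted p under 0.05, in old against young libraries. C3ar1 encodes the receptor for C3a, the small fragment released when C3 is cleaved. Log2 values of C3ar1 were 15.48, 15.62 and 15.54 in young libraries, 15.67, 15.54 and 15.51 in middle-aged libraries, and 15.76, 15.76 and 15.57 in old libraries. Old replicates 1 and 2 lay above all others and old replicate 3 within the young range. C4b also had its highest values in old replicates 1 and 2. Old minus young was 0.15 for C3ar1 (SE 0.08, n = 3 each, limma adjusted p = 0.408), and 0.22 without old replicate 3.

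C5ar1 encodes the receptor for C5a, a fragment that draws and activates phagocytes, neutrophils among them. C5ar1 had log2 values of 15.23, 15.42 and 15.28 in young libraries, 15.42, 15.49 and 15.25 in middle-aged libraries, and 15.50, 15.50 and 15.50 in old libraries. The old libraries lay within 0.01 of each other and above all others. Old minus young was 0.19 (SE 0.08, 95% interval 0.01 to 0.38, n = 3 each, limma unadjusted p = 0.0454, adjusted p = 0.285). C3ar1 minus C5ar1 was 0.25, 0.20 and 0.26 in young libraries, 0.25, 0.04 and 0.26 in middle-aged libraries, and 0.26, 0.26 and 0.06 in old libraries. Old replicate 3 and middle-aged replicate 2 had the smallest gap, and the other 7 libraries lay between 0.20 and 0.26. The old and young differences overlapped (two-sided exact permutation p = 0.9).

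The 9 genes were chosen with earlier results of these data known, so counts of them beside all tested genes are descriptions. The C1q chains also varied together over the 9 libraries (Pearson's r from 0.94 to 0.99), so they do not count as separate results. Counted together, 2 of the 9 genes, C1qa and C1qc, were called higher in old than in young libraries and 0 lower, where the same limma test called 1.7% of all 14955 genes higher and 0.301% lower. For 5 genes, the C1q chains, C3 and C5ar1, old and young libraries did not overlap in the higher direction, against 12.2% of all tested genes, and no member lay lower without overlap, against 12.3%. By unadjusted p under 0.05 the same 5 genes were picked, against 16.8% of all tested genes in either direction. All 9 estimates were positive, with a median log2 difference of 0.27, beside -0.01 over all tested genes, where 7088 of 14955 were positive. The authors' deposited table called 4 of the 9 higher, C1qa, C1qb, C1qc and C3 (DESeq2 adjusted p = 4.5e-06, 0.0262, 0.00138 and 0.00115), against 4.72% of the genes with an adjusted p in that table, and 0 lower, against 2.9%.

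In middle-aged against young libraries, limma called 0 of the 9 genes, where 0.114% of all tested genes were called higher and 0% lower. By unadjusted p under 0.05 it picked 3 of 9, C1qa, C1qc and C3, against 11.4% of all genes, and in 2 of them, C1qa and C1qc, the ages did not overlap, against 11.6% of all genes in that direction and 10% in the other. C1qa differed by 0.37 (SE 0.10) and C1qc by 0.35 (SE 0.11) on the log2 scale (n = 3 each, limma adjusted p = 0.215 and 0.252). The authors' deposited table called both, with log2 fold changes of 0.44 and 0.42 (DESeq2 adjusted p = 0.0033 and 0.00381), and 3.26% of the genes it adjusted were called higher and 2.53% lower. The median over the 9 genes was 0.08, beside -0.001 over all tested genes, and C4b and Cfp had negative estimates (-0.11 and -0.02).

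In old against middle-aged libraries limma again called 0 of the 9 genes, where 0.16% of all tested genes were called higher and 0.0134% lower, and the authors' deposited DESeq2 table also called 0, against 0.859% of its genes higher and 0.466% lower. By unadjusted p under 0.05 limma picked C1qa, C1qb and C4b, 3 of 9, against 10.2% of all genes. Old and middle-aged libraries did not overlap for C1qa, C1qb and C5ar1, where 6.47% of all tested genes were higher without overlap and 6.41% lower. C1qa differed by 0.31 ± 0.10 SE and C1qb by 0.23 ± 0.09 SE (n = 3 each, limma adjusted p = 0.342 and 0.424). Whether the later step differed from the earlier one was tested directly. No member was called by limma for that difference, 0 had an unadjusted p under 0.05 (7.9% of all genes did), and the smallest p was that of C4b, whose later step exceeded the earlier one by 0.49 ± 0.26 SE (limma adjusted p = 0.691). The 3 comparisons share libraries pairwise, so they are not independent of each other.

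**Figure D3:**
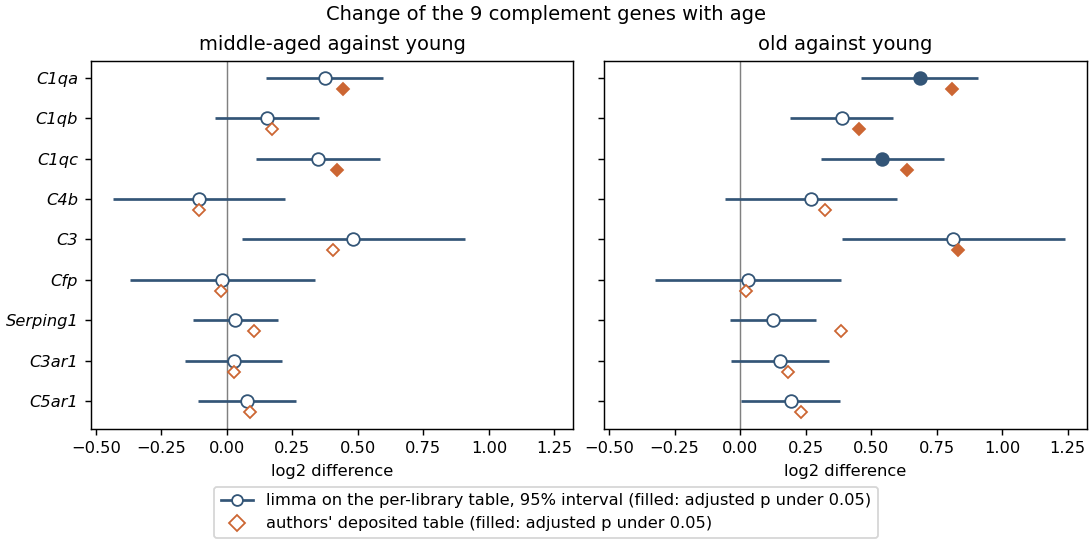
Log2 difference (horizontal axis) of each complement gene in middle-aged against young and in old against young libraries. Circles are limma estimates from the per-library table with 95% intervals and diamonds the authors' deposited log2 fold changes, filled where adjusted p is under 0.05. For old against young, C1qa and C1qc are filled in both sources, C1qb and C3 only in the authors' table, and Serping1 has the widest gap between the sources (0.13 against 0.38).

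Levels were compared between genes per transcript length, here the log2 value minus log2 of the longest protein-coding GENCODE transcript in kilobases. How reads were counted and how the values were transformed are not given, so this order is approximate. On that scale C1qb had the highest level, 18.41 ± 0.20 (SD, n = 9 libraries), 3.68 above C1qa at 14.72 ± 0.32. C1qc, at 14.72 ± 0.27, could not be ordered against C1qa, which was the higher of the pair in 3 of 9 libraries, the 3 old ones. Without the length term C1qa lay below C1qc in all 9 libraries. At 23 months the per-length means were 15.05 for C1qa and 14.97 for C1qc. C5ar1 followed at 14.06 ± 0.12 and C3ar1 at 13.50 ± 0.11. Cfp (11.54 ± 0.20) and C4b (11.41 ± 0.25) came next and changed places between libraries, Cfp being higher in 6 of 9. C3 was at 9.94 ± 0.43 and Serping1 at 5.41 ± 0.09. Every other neighbour in this order kept its place in all 9 libraries.

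**Figure D4:**
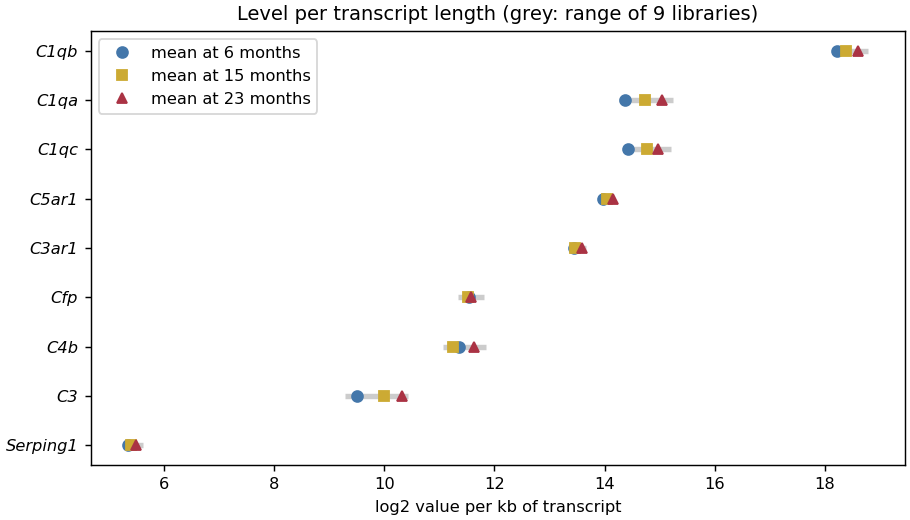
Log2 value per kilobase of transcript (horizontal axis) of the 9 complement genes, ordered by their mean over 9 libraries; symbols are the means at 6, 15 and 23 months and grey bars the range over the libraries. C1qb stands 3.68 log2 units above the next gene, and C3 has the widest range, from 9.28 to 10.43.

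Of 48 other complement genes listed, 24 were tested, 12 were in the table below the filter on low values and 12 were not analysed here. Limma called 1 of the 24 higher in old against young libraries, Itgax, and 0 lower, where it called 1.7% of all tested genes higher and 0.301% lower. Unadjusted p was under 0.05 for 5 of 24, against 16.8% of all tested genes. These 5 were the receptors Itgax, Itgb2, Cd93, C5ar2 and Vsig4, of which C5ar2 and Vsig4 had negative estimates (-0.21 and -0.26). Their median log2 difference in old against young libraries was -0.02, beside -0.01 over all tested genes. Itgax encodes the alpha chain of complement receptor 4, a receptor for cleaved C3. Its log2 value was 10.10, 10.21 and 10.02 in young libraries, 11.34, 10.98 and 10.86 in middle-aged libraries, and 12.11, 12.07 and 12.08 in old libraries, with no overlap between ages. It was 3.92-fold higher in old than in young libraries (log2 1.97, SE 0.12, n = 3 each, limma adjusted p = 3.14e-05), and the authors' deposited table gave a log2 fold change of 2.74. The steps to 15 months and from there to 23 months were called too (limma adjusted p = 0.0224 and 0.0187). The earlier call was lost without young replicate 1, 2 or 3, middle-aged replicate 1, or old replicate 1 or 2 (limma adjusted p up to 0.163). The later call was lost without young replicate 1, 2 or 3, middle-aged replicate 2, or old replicate 1 or 2 (limma adjusted p up to 0.0717). In fits of the 2 ages alone both were lost (limma adjusted p = 0.0555 and 0.19), and the later one also without a variance trend (0.0576). The other chains of the receptors for cleaved C3 did not pass the test: Itgb2, the beta chain shared by complement receptors 3 and 4, had a difference of 0.26 ± 0.11 SE and Itgam, the alpha chain of complement receptor 3, a difference of -0.27 ± 0.15 SE (limma adjusted p = 0.276 and 0.393).

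By role, 1 of 7 receptor genes, 0 of 11 regulators, 0 of 4 genes of classical and lectin initiation and 0 of 2 terminal components were called in old against young libraries (limma), and outside the receptors 0 had an unadjusted p under 0.05. The authors' deposited table called 2 of the 23 genes it gave an adjusted p, Itgax and Cd93, both higher, where 4.72% of all genes with an adjusted p in that table were called higher and 2.9% lower. Regulators ranged from -0.36 for Cd46 to 0.18 for Cd55, which encodes a membrane protein that limits complement on the cell's own surface. Cd93, a receptor once described as one for C1q, had a difference of 0.27 ± 0.09 SE here (limma adjusted p = 0.161) and a log2 fold change of 0.40 in the authors' deposited table, where it was called (DESeq2 adjusted p = 0.019). C8g, encoding the gamma chain of C8, had log2 values between 6.27 and 6.54 (old against young 0.09 ± 0.08 SE, limma adjusted p = 0.596).

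Fcnb encodes ficolin B, a lectin that starts the lectin pathway and is made by neutrophils and their precursors. Its log2 value was 10.91, 11.54 and 11.35 in young libraries, 11.86, 12.71 and 11.55 in middle-aged libraries, and 10.67, 10.91 and 11.74 in old libraries. It was highest at 15 months, with a difference of 0.78 ± 0.32 SE against young libraries (limma adjusted p = 0.395), and middle-aged replicate 2, its highest library, also had the highest neutrophil marker sum of the 9, 1006925. The authors' deposited table called it higher at that age, with a log2 fold change of 0.57 (DESeq2 adjusted p = 0.0378).

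**Figure D5:**
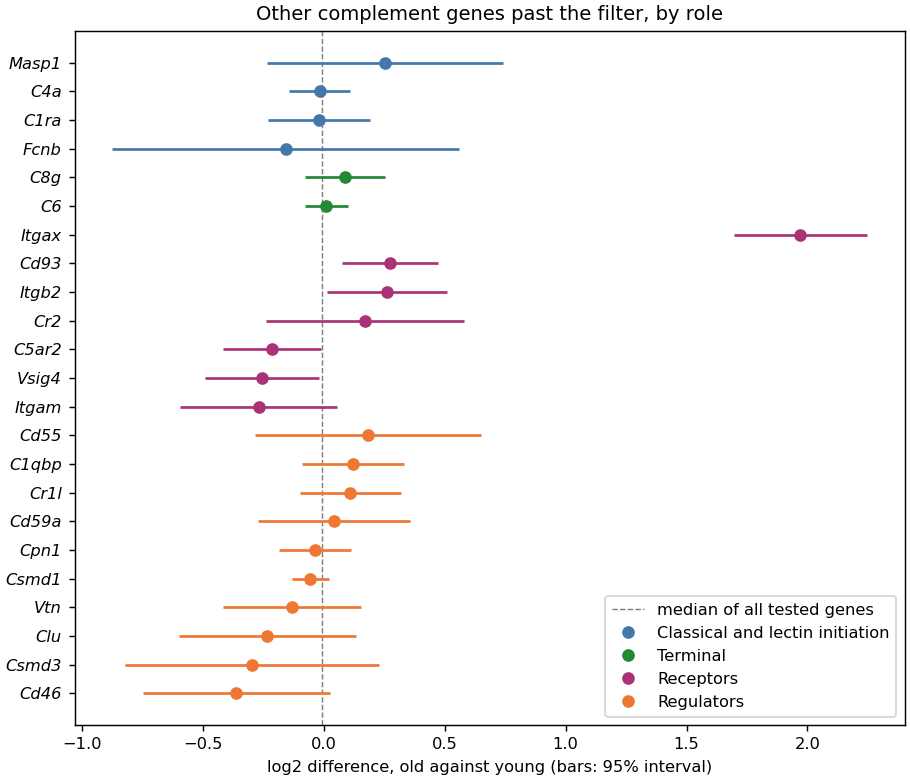
Log2 difference in old against young libraries (horizontal axis, points with 95% intervals) of 23 of the 24 other complement genes that passed the filter (1 is not reported here), grouped by role, with the median of all tested genes as a dashed line. Itgax stands at 1.97, and the others shown lie between -0.36 and 0.27.

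The members did not share a single course over the 9 libraries. Likeness was measured with Pearson's r over the 9 libraries, as a description that any age difference shared by 2 genes raises. It was 0.99 between C1qa and C1qc, 0.95 between C1qa and C1qb, 0.92 between C3 and C5ar1, and 0.88 between C4b and C3ar1, both of them highest in old replicates 1 and 2. Cfp had no r above 0.53 with any other member. Among all tested genes the courses nearest to the mean of the C1q chains were those of the mitochondrial fission gene Fis1 (r = 0.985), the NADPH oxidase subunit gene Cyba (0.981), the endoplasmic reticulum gene Sdf2l1 (0.981), the nucleosome-binding protein gene Hmgn3 (0.979) and the respiratory chain gene Cox4i1 (0.977). Their log2 differences between old and young libraries ran from 0.22 for Fis1 to 0.63 for Sdf2l1.

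Nearest to C3 were Cd300lb, an activating myeloid receptor gene (r = 0.979), Lsp1, a leukocyte actin-binding protein gene (0.963), and Tagln2 (0.961). The courses nearest to C5ar1 were those of Ldha, encoding lactate dehydrogenase A (0.961), Ucp2 (0.958) and Eif5a (0.947). C3ar1 was most like Prcp, Gjb1 and Hexa (0.959, 0.957 and 0.955), and C4b most like Gpr31b, Abcd2 and Gprc5a (0.965, 0.956 and 0.951). For Serping1 they were Pigm, Chst3 and Ddhd1 (0.968, 0.965 and 0.962), and Cfp was like Pgap3 and Cnn2 (0.913 and 0.905).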

How the data were processed

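RNA of flow-sorted microglia was amplified with a low-input library kit, per the labels' protocols. Not given in the sources used here are the sort gate, how reads were counted and with which annotation. The authors worked with DESeq2 1.16.1, STAR 2.5.3, cutadapt 1.13 and CASAVA on mm10 (GRCm38, the assembly of GENCODE M21), per the submitters' processing notes. The authors deposited a per-library table of log2 values, from -2.14 to 20.05, whose transformation is not given. Each of the 3 comparison tables that the authors deposited has a base mean (average signal), log2 fold change, test score and raw and adjusted p-value, per the file headers; positive folds are higher at the later age.

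The log2 values were used as deposited. Genes at 3.32 or more in at least 3 libraries were tested with limma 3.58.1 in R 4.3.3: a linear model of the 3 ages on all 9 libraries, variance trend, two-sided moderated tests and an F test, Benjamini-Hochberg adjustment over 14955 genes, threshold 0.05. The fit was tested on simulated data. Differences between members used exact permutation tests in Python. The members and gene lists were chosen with earlier results of these data known. All 9 members are named; of the other listed genes, those called in any comparison and, in a role with none, the most abundant; further named genes were chosen after their values were seen. Genes like a member were the 5 (C1q) or 3 (others) with the highest Pearson's r, unnamed gene models left out. Genes that these rules select but that the text does not name are not reported here. Deviations of same-numbered libraries correlated between -0.24 and 0.23, and those of different-numbered ones between -0.44 and 0.42. Whether replicate numbers mark libraries handled together is not known.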

Additional observations from a re-analysis of the deposited data

How the results depend on the processing

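Under 11 other settings of the old against young fit, C1qa was called in 11, C1qc in 8 and C3 in 3. The number of members called, 2, became 1 without a filter on low values and with the 2 ages alone (C1qa in both). It became 3 with a filter at log2 of 50, which added C3 (limma adjusted p = 0.0419). With library weights it was 5 (the C1q chains, C3 and C4b), and it ranged from 0 to 3 when a library was left out. For middle-aged against young the count of 0 became 2 with library weights and stayed at 0 when a library was left out. The F test's count of 1 became 4 with library weights and ranged from 0 to 2 when a library was left out. With a replicate block the old against young count was again 2, C1qa (limma adjusted p = 0.0245) and C3 (0.0126), while C1qc had 0.0633, and the block's F test called C3 in place of C1qa. Of the same-numbered pairs of libraries, 2 of 9 had a correlation over 0.1, and of the different-numbered pairs 2 of 18. These few pairs cannot decide whether same-numbered libraries were handled together.

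Over all tested genes, the old against young count of 299 was 170 without a filter, 153 with the 2 ages alone, 185 with the replicate block and 1609 with library weights, and 84 to 322 when a library was left out. For middle-aged against young, 17 became 10 without a filter, 29 with a filter at log2 of 50, 11 with the block and 312 with library weights (4 to 49 when a library was left out). For old against middle-aged, 26 became 9, 47, 14 and 62 under those settings, 3 without a variance trend and 0 with the 2 ages alone (3 to 23 when a library was left out). The F test's 125 became 80 with the block and 1275 with library weights (51 to 141 when a library was left out), and the count of 0 for the difference between steps ranged from 0 to 5 when a library was left out.

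Estimates that changed sign were not called under any setting. With library weights Cfp was -0.0405 in old against young, 0.0362 in middle-aged against young and -0.0767 in old against middle-aged libraries. When each library was left out in turn, Cfp ranged from -0.0718 to 0.165, from -0.154 to 0.117 and from -0.0479 to 0.184 in these comparisons. In middle-aged against young libraries C3ar1 then ranged from -0.0246 to 0.0629 and Serping1 from -0.0059 to 0.0543. The old against young shift of C3ar1 minus C5ar1, -0.042, ranged from -0.0757 to 0.0241. When each of 6 libraries was left out, the old against young shift ranged from 0.273 to 0.343 for C1qa minus C1qb, 0.123 to 0.206 for C1qc minus C1qb and 0.13 to 0.161 for C1qa minus C1qc. Pairing same-numbered libraries leaves these mean shifts as they are by construction (exact sign-flip p = 0.25 for each, the smallest that 3 pairs allow). Beside the old against young shifts of 0.298, 0.156 and 0.142, each at exact p = 0.1, the exact permutation F test added after the values were seen asks another question, whether any of the 3 ages differ, and passed the threshold for each pair. The cause of these dependences was not tested. Without read totals, what depth limits is unknown.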
